A study of Bos taurus with 12 samples.

Results

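The genes described here carry out the making, sensing and export of antibody: IGHM, JCHAIN, MZB1, BLNK, CD79A, CD79B and PIGR. All probe sets were taken whose gene symbol in the platform annotation was one of these 7. 6 of the 7 genes had a probe set, 1 each, among 9155 distinct symbols and 24016 probe sets other than controls, and no probe set carried the symbol CD79B. The RNA came from the endometrium, the inner lining of the uterus, of cyclic Simmental heifers that had been synchronized in estrus. The cells were brushed from the wall of the uterus, reached through the vagina, at day 3 or day 7 of the cycle before an embryo transfer. In vitro-produced blastocysts were transferred in the next cycle, and the biopsies were sorted afterwards into high receptivity (HR, called receptive in the sample records, with an embryo seen by ultrasound) and low receptivity (LR, called non receptive). The 4 groups were HR3, LR3, HR7 and LR7 after receptivity and day, with 3 pools of RNA from 5 biopsies per group and 1 GeneChip Bovine Genome Array per pool. The records do not say whether day 3 and day 7 pools came from the same animals, and a pool hides how its biopsies differed.

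IgM is the first antibody class that a B cell makes, and its heavy chain is encoded by IGHM. The B cell receptor is a membrane antibody held together with CD79A and CD79B, which pass the signal on to kinases and to the adaptor BLNK. A B cell that becomes a plasma cell secretes antibody in place of displaying it, with the help of endoplasmic reticulum proteins such as MZB1. The joining chain, JCHAIN, links antibody units into the polymers that PIGR, the polymeric immunoglobulin receptor of epithelial cells, carries into the lumen of mucosal organs such as the uterus.

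Values were log2 signals as deposited, so a difference of 1 is a doubling of signal, and signals of different genes were not set against each other. Array medians lay between 6.63 and 6.77. Of the 6 genes, 5 were tested, because they varied over the arrays and lay above the array median in all pools of at least 1 group. IGHM, JCHAIN, BLNK and PIGR lay above it in all 12 pools. MZB1 did so in 7 of the 12, among them every day 7 pool, and CD79A in none. Differences were tested in limma over 7336 probe sets, and a gene is said to have risen or fallen where the Benjamini-Hochberg adjusted p was under 0.05. The records do not say how biopsies were assigned to pools, so the p-values measure the spread between these pools, which may in part be technical.

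The antibody genes IGHM and JCHAIN varied more among the LR pools than among the HR pools in these samples. All tested probe sets together did so too, to a smaller extent. Their median SD was 0.23 in LR3 and 0.22 in LR7, against 0.18 in HR3 and 0.16 in HR7. In LR3 the signal of IGHM was 7.73 in pool 1, 8.09 in pool 2 and 10.06 in pool 3. It was 7.13, 7.31 and 7.40 in the pools of HR3, 6.75, 7.72 and 7.61 in those of LR7, and 7.09, 6.78 and 7.19 in those of HR7. The third pool of LR3 stood alone at the top. The other LR3 pools were the next highest of the 12, although pool 1 of LR3, at 7.73, was only just above pool 2 of LR7, at 7.72. Between the lowest and the highest pool the signal differed 5.03-fold in LR3, 1.96-fold in LR7, 1.21-fold in HR3 and 1.33-fold in HR7. The SD was 1.25 in LR3, larger than that of 99.55% of the tested probe sets in that group. It was 0.53, 0.14 and 0.21 in LR7, HR3 and HR7, larger than that of 91.58%, 35.73% and 65.7%. The wide spread among the LR3 pools was known before these genes were described, so the ranks are a description and not a test.

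JCHAIN was spread in a similar way. Its signal in LR3 was 7.81, 8.61 and 10.37 in pools 1 to 3, and in LR7 it was 7.37, 8.94 and 7.95. The HR3 pools had 8.23, 7.82 and 7.68, and the HR7 pools 7.86, 7.50 and 7.92. Pool 3 of LR3 was again the highest of the 12, followed by pool 2 of LR7 and pool 2 of LR3, while pool 1 of LR3 and pool 1 of LR7 lay within or below the range of the HR pools. The SD was 1.31 in LR3, above that of 99.59% of the tested probe sets, and 0.79 in LR7, above that of 97.63%. It was 0.29 in HR3 (above 77.11%) and 0.23 in HR7 (above 69.14%). For JCHAIN too these ranks are a description and not a test.

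**Figure D1:**
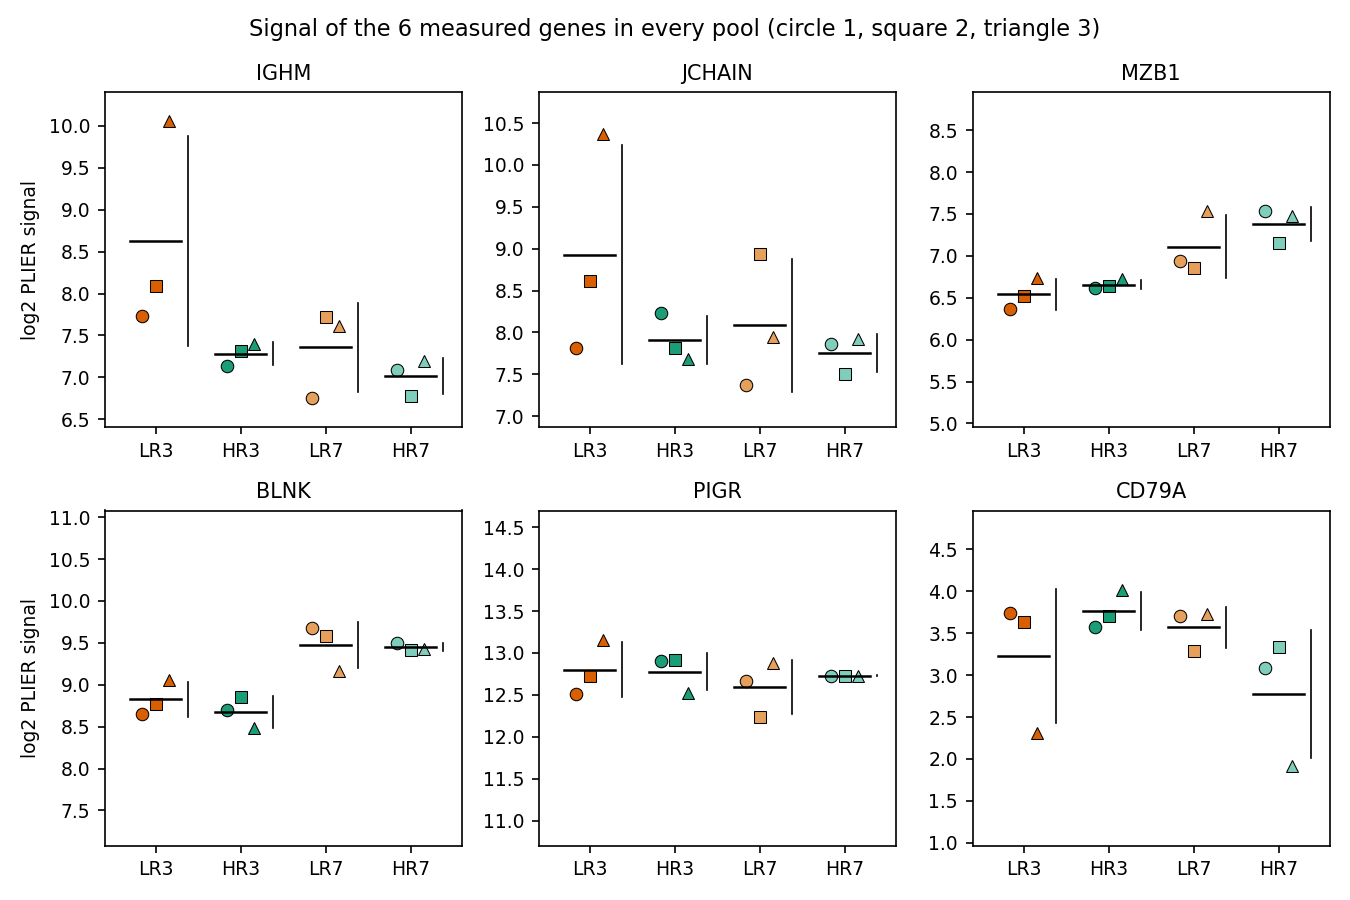
Log2 PLIER signal of the 6 genes in each of the 12 pools (vertical axes, each spanning the same number of log2 units), with pools 1, 2 and 3 as circles, squares and triangles in the groups LR3, HR3, LR7 and HR7, the mean as a horizontal line and the SD over 3 pools as a vertical line. IGHM and JCHAIN were highest in pool 3 of LR3, at 10.06 and 10.37, MZB1 and BLNK were higher in every day 7 pool than in any day 3 pool, PIGR lay between 12.24 and 13.16, and CD79A lay between 1.91 and 4.02.

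At day 3 the question was whether the transcripts differed with the later pregnancy. Mean IGHM was 8.63 ± 1.25 (SD, n = 3 pools) in LR3 and 7.28 ± 0.14 in HR3, and the pools of both groups did not overlap. The difference of HR3 minus LR3 was -1.35 (SE 0.47, 95% interval -2.37 to -0.32), a 2.54-fold higher signal in LR3, with an adjusted p of 0.670 in limma. Groups that did not overlap with HR3 lower made up 4.99% of all probe sets tested, so IGHM was one of many. JCHAIN differed by -1.02 (SE 0.53, 95% interval -2.18 to 0.14, adjusted p = 0.704), and its pools overlapped. None of the 5 tested genes passed, as none of all probe sets did (0%). At an unadjusted p under 0.05, 1 of the 5 was counted, IGHM at 0.0144, beside 7.03% of all probe sets, and an ordinary linear model gave the same counts for the 5 genes. Without pool 3 of LR3 the difference was -0.63 for IGHM and -0.30 for JCHAIN. Without pool 1 of LR3 it was -1.80 for IGHM and -1.58 for JCHAIN (adjusted p = 0.979 for both), and then 2 of the 5 genes had an unadjusted p under 0.05. In RNA from a whole biopsy, fewer antibody-making cells and less of the transcript per cell cannot be told apart.

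At day 7 the receptivity groups overlapped for each of the 5 tested genes. HR7 minus LR7 was -0.34 for IGHM (95% interval -1.37 to 0.69) and -0.33 for JCHAIN (95% interval -1.49 to 0.83). Without pool 2 of LR7 the difference was 0.10 for JCHAIN and -0.16 for IGHM, and without pool 1 of LR7 it was -0.69 for JCHAIN and -0.65 for IGHM. None of the 5 passed in limma, with adjusted p = 0.997 for each, and none had an unadjusted p under 0.05. Over all probe sets 0.0682% passed, and 4.51% had an unadjusted p under 0.05. Without pool 3 of LR7, 1 of the 5, MZB1, had an unadjusted p under 0.05 (difference 0.49, adjusted p = 0.552). These intervals include differences of over 1 log2 unit in IGHM and JCHAIN.

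From day 3 to day 7 IGHM fell by 1.27 in LR (SE 0.47, adjusted p = 0.0456 in limma), from 8.63 ± 1.25 to 7.36 ± 0.53 (SD, n = 3 pools), without overlap. Among all tested probe sets 44.7% passed in this comparison, 22% downwards, and 25.9% were lower in LR7 without overlap. The call was close to the threshold, with an adjusted p of 0.0199 to 0.202 over 26 alternatives. It was lost in 10 of the 12 fits that left out 1 pool and was kept in the fits without pool 1 or pool 2 of LR3. The difference was -0.55 without pool 3 of LR3 (adjusted p = 0.112), -0.96 without pool 1 of LR7 (adjusted p = 0.159) and -1.72 without pool 1 of LR3 (adjusted p = 0.0199). The call was also lost when only LR3 and LR7 entered the model (adjusted p = 0.107) and without the limit on low signals (adjusted p = 0.120). JCHAIN differed by -0.84 in LR (SE 0.53, adjusted p = 0.198), and this was -0.12 without pool 3 of LR3 (adjusted p = 0.807) and -1.40 without pool 1 of LR3 (adjusted p = 0.0502). In HR the corresponding differences were -0.26 for IGHM (adjusted p = 0.664) and -0.15 for JCHAIN (adjusted p = 0.830). The interaction, the difference over days in HR minus that in LR, was 1.01 for IGHM (SE 0.67) and 0.69 for JCHAIN (SE 0.75), both with an adjusted p of 1.

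Over the 12 pools the signals of IGHM and JCHAIN varied together. Pearson's r was 0.92 (permutation p = 0.0007, adjusted p = 0.0072 over the 10 pairs of tested genes) and Spearman's rho 0.66 (permutation p = 0.022, adjusted p = 0.11). The permutations ignored group and day, so these p-values also count differences between the groups as covariation. Within days r was 0.95 over the 6 pools of day 3 and 0.87 over the 6 of day 7. With the pools farthest from the median of IGHM left out, pools 2 and 3 of LR3, r was 0.61. Taken as deviations from the group mean, r was 0.91 and, without pool 3 of LR3, 0.83. None of the other 9 pairs passed the adjustment.

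A further heavy chain probe set had the same high pools. It is named LOC524810 in the platform annotation, a locus for which RefSeq lists IGHV, the variable segment of the antibody heavy chain, as a synonym, and the match was made after its values had been seen. Its signal was 7.01, 8.48 and 9.01 in LR3 and 5.44, 8.51 and 5.19 in LR7. The HR3 pools had 5.64, 6.23 and 6.19, and the HR7 pools 4.96, 4.37 and 5.55. The 3 pools with the highest JCHAIN, pools 2 and 3 of LR3 and pool 2 of LR7, were also the 3 with the highest LOC524810. LOC524810 ranked 4 among 4373 other probe sets in likeness of its values to JCHAIN (r = 0.81). The shared pools are therefore no independent evidence. It had been kept for testing through LR3 alone, where it was high, so its differences from LR3, -2.15 for HR3 and -1.79 for LR7, are given as a description with no test. 4 of the 22 genes on the list of antibody chains had a probe set, and the chains of IgG and IgA were not among them. Heavy chain genes resemble each other in sequence, and whether a probe set also bound other heavy chains was not tested.

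**Figure D2:**
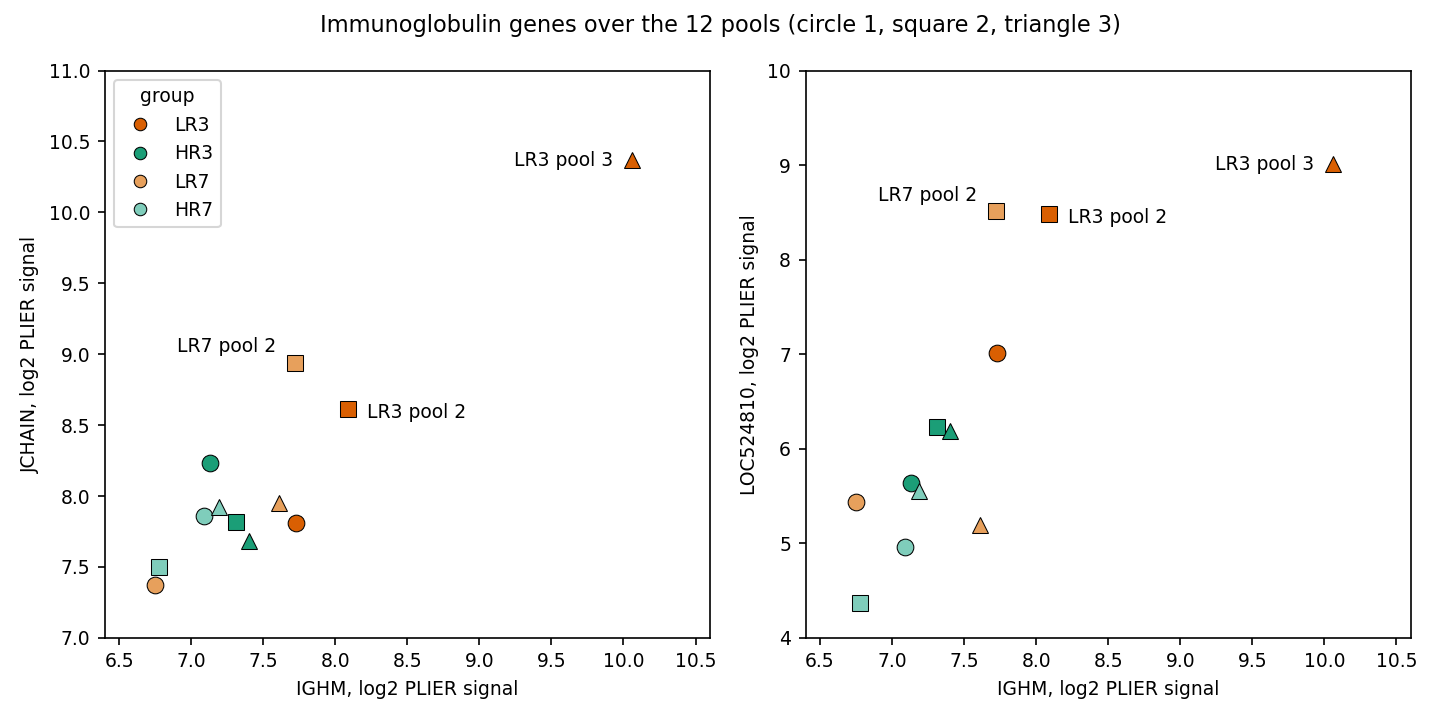
JCHAIN (left) and LOC524810 (right) against IGHM, all as log2 PLIER signals, with 1 point for each of the 12 pools coloured by group and shaped by pool number. Pool 3 of LR3 lies far to the upper right in both panels, at 10.06 for IGHM, 10.37 for JCHAIN and 9.01 for LOC524810, and pool 2 of LR3 and pool 2 of LR7 come next in height, apart from the HR pools.

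MZB1 rose with the day of the cycle. Its signal was 6.37, 6.52 and 6.73 in LR3 and 6.61, 6.64 and 6.72 in HR3, and it reached 6.94, 6.85 and 7.54 in LR7 and 7.53, 7.15 and 7.47 in HR7. All 6 day 7 pools were above all 6 day 3 pools. In HR the rise was 0.73 (SE 0.19, 95% interval 0.32 to 1.13, adjusted p = 0.0106 in limma). In LR it was 0.57 (SE 0.19, 95% interval 0.16 to 0.98, adjusted p = 0.0284), and here the call was lost in 3 of the 12 fits without 1 pool (adjusted p = 0.0887 without pool 1 of LR3, 0.0648 without pool 2 of LR3 and 0.0912 without pool 3 of LR7). The difference was 0.36 without pool 3 of LR7. MZB1 was tested only because its day 7 pools lay above the array median, which favours a rise. Without that limit the adjusted p was 0.0397 in HR and 0.0828 in LR. Over 25 alternatives the adjusted p was 0.000557 to 0.0402 in HR and 0.0173 to 0.164 in LR. HR minus LR was 0.12 at day 3 (adjusted p = 0.901) and 0.27 at day 7 (adjusted p = 0.997), and the interaction was 0.16 (SE 0.26, adjusted p = 1).

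Over the 12 pools the r of MZB1 was -0.31 with IGHM and -0.25 with JCHAIN, where the days differed in opposite directions. As deviations from the group means r was 0.50 with IGHM (0.44 without pool 3 of LR3) and 0.25 with JCHAIN. Pool 3 of LR3, where both antibody genes were highest, also had the highest MZB1 of the 6 day 3 pools, at 6.73, beside 6.72 in the highest HR3 pool. Among 4373 other probe sets with 1 symbol, the deviations of MZB1 from its group means were most like those of CD3G (r = 0.98), CD3E (0.97), RAC2 (0.96), CD3D (0.95) and NENF (0.95) over the 12 pools. CD3G, CD3E and CD3D encode chains of the T cell receptor complex. These r values are the highest of all those compared, over pools of the same arrays, and no test was made of them. The summed signal of 10 T cell markers was nonetheless lower at day 7, where MZB1 was higher, at 9.49 to 10.38 in LR7 and 9.44 to 10.10 in HR7 against 10.31 to 10.87 in LR3 and 10.29 to 10.50 in HR3 on the log2 scale.

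BLNK, the adaptor that couples the B cell receptor to its downstream enzymes, also rose with the day. Its signal was 8.65, 8.77 and 9.06 in LR3 and 8.70, 8.86 and 8.48 in HR3. The LR7 pools reached 9.68, 9.58 and 9.16, and the HR7 pools 9.50, 9.41 and 9.43. The days did not overlap in either receptivity group, and the HR7 pools lay within 0.09 of each other. The rise was 0.77 in HR (SE 0.17, adjusted p = 0.00505 in limma), which is 1.70-fold, and 0.65 in LR (SE 0.17, adjusted p = 0.0111), which is 1.57-fold. Over 26 alternatives the adjusted p was 0.000955 to 0.0232 in HR and 0.00419 to 0.164 in LR. HR minus LR was -0.15 at day 3 (95% interval -0.51 to 0.22) and -0.03 at day 7 (95% interval -0.39 to 0.34), and the interaction was 0.12 (SE 0.24, adjusted p = 1).

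With BLNK and MZB1, 2 of the 5 tested genes rose in HR and none fell, on arrays where 41.5% of all tested probe sets passed, 20.7% upwards and 20.8% downwards. In LR these 2 rose and IGHM fell, where 44.7% passed, 22.7% upwards and 22% downwards. These counts, 2 and 3 of 5, were thus not far from the share among all probe sets. Both include MZB1, which was tested through its day 7 pools only, so that a rise was favoured. Pools at day 7 were higher without overlap in 29% of the tested probe sets in HR and in 25.4% in LR. For the interaction, none of the 5 genes and 0% of all probe sets passed, and none of the 5 had an unadjusted p under 0.05, against 3.9% of all probe sets.

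**Figure D3:**
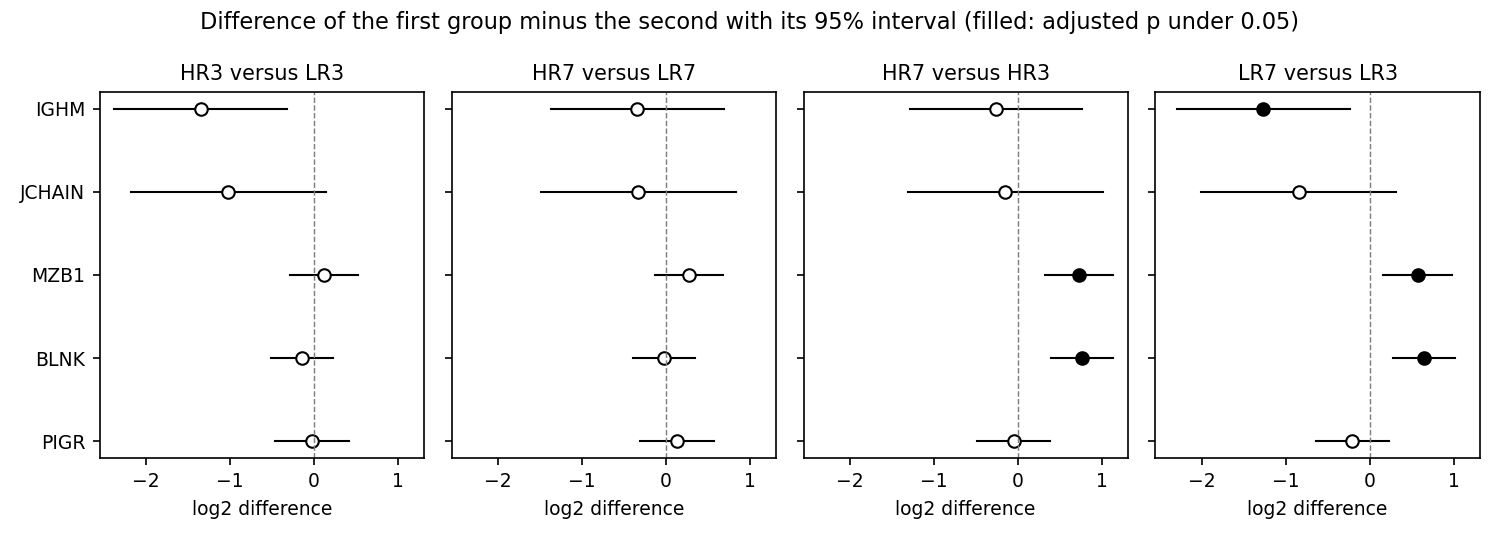
Log2 differences of 5 tested genes in 4 comparisons, each as the first group minus the second with its 95% interval, where a filled point marks an adjusted p under 0.05. MZB1 and BLNK lie to the right of 0 in both day comparisons (0.57 to 0.77), IGHM lies to the left of 0 with an interval of -2.29 to -0.24 in LR7 versus LR3, and no point is filled in the comparisons of HR with LR.

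CD79A, which passes on the signal of the B cell receptor, lay below the array median on every array. Its signal was 3.74, 3.64 and 2.31 in LR3, 3.57, 3.71 and 4.02 in HR3, 3.70, 3.29 and 3.73 in LR7 and 3.08, 3.34 and 1.91 in HR7. The pool with the highest IGHM, pool 3 of LR3, had the second lowest CD79A. HR7 lay below HR3 without overlap, by a mean difference of -0.99, but signals this low were not tested. MS4A1, which encodes the B cell surface protein CD20, was the other marker of B cells with a probe set of the 6 on that list. It lay below the array median in all pools as well. The summed signal of MS4A1 and CD79A was 5.39, 5.34 and 3.88 in LR3, 4.97 to 5.39 in HR3, 4.29 to 5.40 in LR7 and 4.18 to 5.13 in HR7. Signals this low were not read as a measure of B cells.

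Further genes of the pathway were taken from lists of known function. These lists also hold genes described above, so their counts and medians include results already given. Among the tested genes, IGHM and BLNK are on the list of the B cell receptor. JCHAIN and MZB1 are on that of plasma cells, and PIGR is on that of transport across epithelium. For the B cell receptor and its signaling, 15 of 24 genes had a probe set and 7 were tested. In HR, 3 of the 7 rose from day 3 to day 7 and none fell, and in LR 3 rose and 1, IGHM, fell, where 41.5% and 44.7% of all tested probe sets passed. The median difference was 0.36 in HR and 0.28 in LR, beside -0.06 and -0.10 over all probe sets tested. The 7 include FCGR2B, kept through its day 7 pools only, which favours a rise, so these medians are a description. FCGR2B, an inhibitory receptor for the constant part of IgG on B cells and myeloid cells, rose by 5.18 in HR (SE 0.23, adjusted p = 2.16e-07 in limma) and by 3.48 in LR (SE 0.23, adjusted p = 7.47e-06).

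The signal of FCGR2B was 5.15, 5.50 and 6.14 in LR3, 4.79, 5.29 and 5.27 in HR3, 8.92, 9.25 and 9.07 in LR7 and 10.45, 10.18 and 10.26 in HR7. The LR3 pools were the most spread (SD 0.50), and the days lay far apart in both receptivity groups. HR7 was above LR7 without overlap, by 1.22 (SE 0.23, adjusted p = 0.167), and the interaction was 1.70 (SE 0.32, adjusted p = 0.269), so neither passed. FCGR2B was tested through its day 7 pools only. The summed signal of 4 neutrophil markers went the same way. It was 8.85 to 9.89 in LR3 and 8.38 to 8.86 in HR3, and 11.79 to 12.51 in LR7 and 12.70 to 13.63 in HR7. Of the 4, S100A8, S100A9 and S100A12 rose in both receptivity groups. MPO lay below the array median in all pools, and its days overlapped in both groups. Of 7 macrophage markers tested, CD68 rose by 2.037 in HR and 1.997 in LR, and CD14 by 1.63 and 1.22. C1QC fell in HR, and 4 in HR and 5 in LR did not pass. The part of these cells in the rise of FCGR2B was not tested. The kinase LYN rose by 0.45 in HR (adjusted p = 0.0331), and the B cell coreceptor component CD81 rose by 0.48 in LR (adjusted p = 0.0401).

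For plasma cells and antibody secretion, 18 of 24 genes had a probe set and 10 were tested. In HR 5 rose and 2 fell, with a median difference of 0.49, and in LR 2 rose and 1 fell, with a median of 0.37. Among all tested probe sets 41.5% passed in HR and 44.7% in LR. CRELD2, a chaperone of the endoplasmic reticulum, rose by 1.40 in HR (SE 0.26, adjusted p = 0.00235 in limma) and 1.11 in LR (SE 0.26, adjusted p = 0.00730). DERL3, which takes part in the disposal of misfolded proteins, rose by 1.30 in HR (SE 0.33), ELL2, an elongation factor that favours secreted antibody transcripts, by 0.82 (SE 0.18), and the chaperone FKBP11 by 0.59 (SE 0.20). PRDM1, the transcription factor that drives plasma cell formation, went the other way. It fell by 0.80 in HR (SE 0.27, adjusted p = 0.0355) and by 1.01 in LR (SE 0.27, adjusted p = 0.0131). The kinase PIM2 fell by 0.44 in HR (SE 0.14, adjusted p = 0.0287). DERL3 was tested through its day 7 pools only and PIM2 through LR3 only. Secretory epithelium uses the chaperones of this list too.

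PIGR did not pass in any comparison. Its signal was 12.51, 12.73 and 13.16 in LR3, 12.90, 12.91 and 12.52 in HR3, 12.66, 12.24 and 12.88 in LR7 and 12.73, 12.73 and 12.72 in HR7. All 4 groups overlapped, and the HR7 pools were within 0.01 of each other, while the SD was 0.33 in LR3 and in LR7, above that of 74% and 73.41% of the tested probe sets. HR minus LR was -0.02 at day 3 (95% interval -0.46 to 0.41) and 0.13 at day 7 (95% interval -0.30 to 0.57). From day 3 to day 7 it differed by -0.05 in HR (95% interval -0.49 to 0.39) and by -0.21 in LR (95% interval -0.64 to 0.23), and none of these passed in limma (adjusted p = 0.394 for the last). The highest PIGR pool was pool 3 of LR3, the one with the highest IGHM and JCHAIN, but r over the 12 pools was 0.42 with IGHM and 0.34 with JCHAIN, with adjusted permutation p of 0.61 and 0.66.

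Of 12 genes for immunoglobulin transport across epithelium, 9 had a probe set and 7 were tested. FCGRT, the neonatal Fc receptor that carries IgG across cells and protects it from breakdown, fell from 11.79 ± 0.15 to 11.03 ± 0.25 in HR (SD, n = 3 pools), by 0.76 (SE 0.16, adjusted p = 0.00431 in limma). In LR it fell from 11.37 ± 0.03 to 10.85 ± 0.23, by 0.52 (SE 0.16, adjusted p = 0.0235). The HR3 pools, at 11.66, 11.76 and 11.95, were above the LR3 pools, at 11.40, 11.37 and 11.34, with a difference of 0.42 (SE 0.16, unadjusted p 0.0230 and adjusted p = 0.670). In that comparison 7.03% of all probe sets had an unadjusted p under 0.05. RAB25 and RAB11A, GTPases of recycling endosomes, rose in LR by 0.66 and 0.37 (adjusted p = 0.0288 and 0.0376), and MAL2, which serves transport across cells to the apical side, fell by 0.64 (adjusted p = 0.0116). In HR, FCGRT was the 1 gene of the 7 that passed, where 41.5% of all tested probe sets did. In LR 2 of the 7 rose and 2 fell, where 44.7% of all tested probe sets passed. The medians were -0.05 in HR and -0.21 in LR.

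Of 27 genes that draw antibody-secreting cells into tissue or keep them alive, 23 had a probe set and 5 were tested. Of the 5, 4 rose in HR and 3 in LR and none fell, where 20.7% and 22.7% of all tested probe sets rose. The 3 that rose in LR were kept through groups other than LR3, which favours a rise. The counts were therefore not read as an excess. ITGB7, an integrin chain of gut-homing lymphocytes, differed by -0.24 in HR and -0.20 in LR (adjusted p = 0.408 and 0.483 in limma). TNFSF13, the survival factor APRIL, rose by 1.60 in HR (SE 0.14, adjusted p = 1.85e-05 in limma) and by 1.13 in LR (SE 0.14, adjusted p = 0.000198). CXCR4, a chemokine receptor of many leukocytes, rose by 0.99 and 1.21 (adjusted p = 0.00759 and 0.00277), and VCAM1, an adhesion molecule, by 0.60 and 1.38 (adjusted p = 0.0400 and 0.000760). CCL28, an epithelial chemokine that attracts IgA-secreting cells, rose by 1.05 in HR (SE 0.27, adjusted p = 0.0112) and differed by 0.61 in LR (SE 0.27, adjusted p = 0.0858). TNFSF13 and CXCR4 were tested through day 7 pools only, and VCAM1 through HR3 and the day 7 pools. For HR against LR, 0 of 31 list genes passed in limma at either day, and 0 passed for the interaction. An unadjusted p under 0.05 was found for 5 at day 3, 2 at day 7 and 3 for the interaction. Among all probe sets the shares were 7.03%, 4.51% and 3.9%. LOC524810, kept through LR3 alone, and IGHM, already counted above, are among the 5 at day 3.

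**Figure D4:**
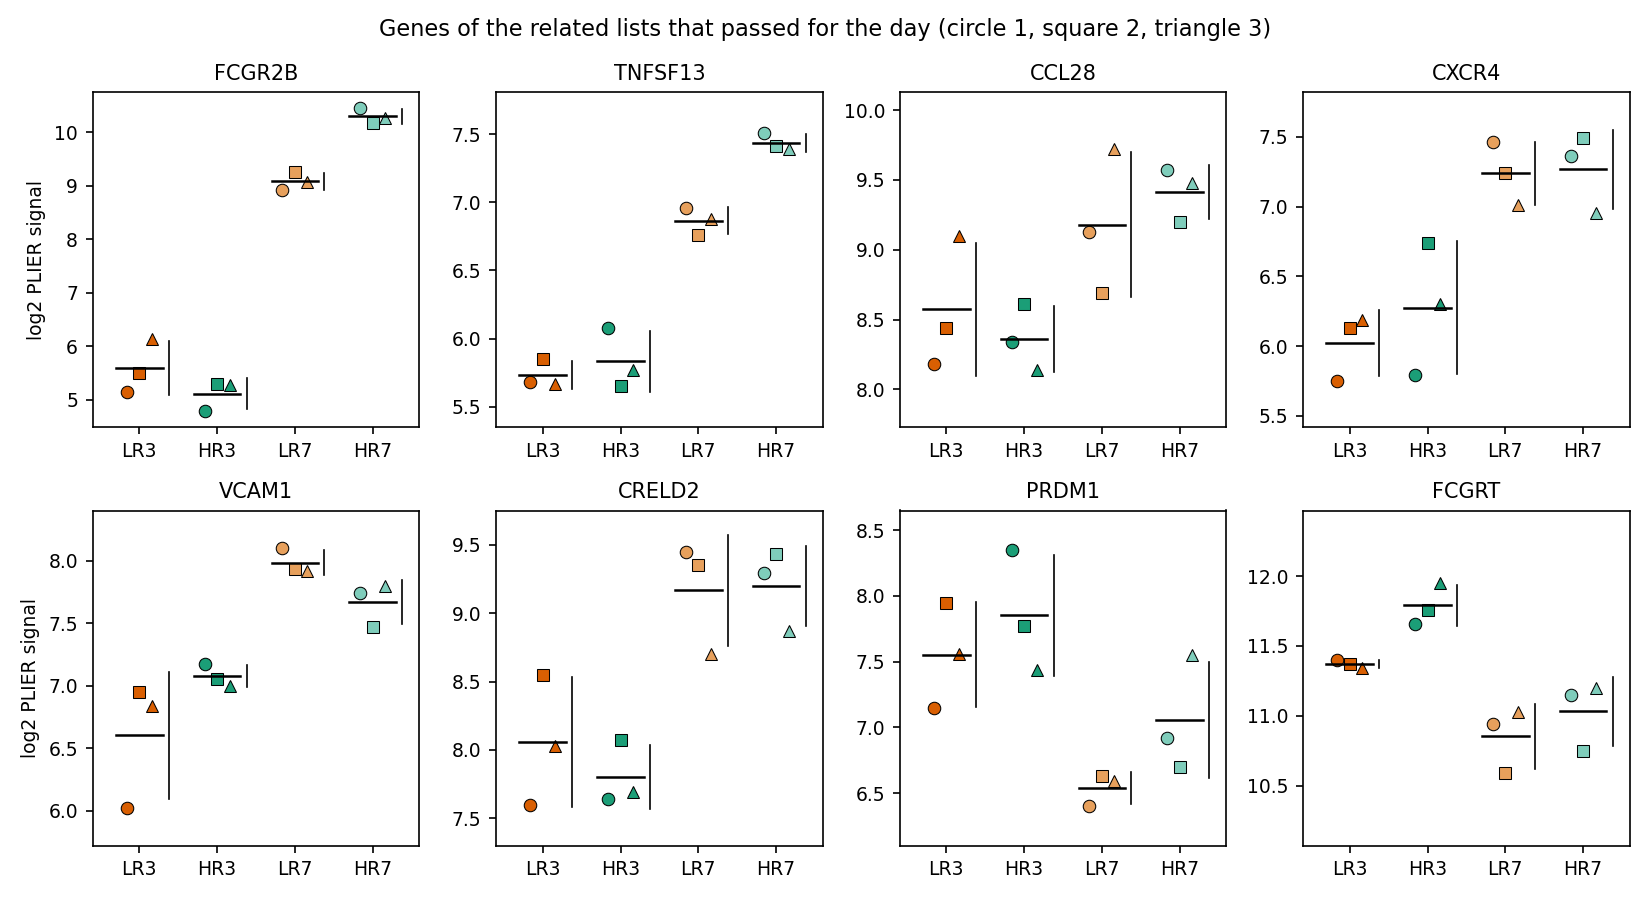
Log2 PLIER signal of 8 genes from the related lists in each of the 12 pools (circles, squares and triangles for pools 1, 2 and 3), with the mean as a horizontal and the SD over 3 pools as a vertical line, on vertical axes of different length. FCGR2B, TNFSF13, CXCR4 and VCAM1 were higher in all day 7 pools than in all day 3 pools, FCGRT was lower in all of them, and CCL28 in LR overlapped between the days.

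Of 24 genes for B cell identity, 9 had a probe set, and CD40 was the 1 gene tested. It differed by 0.36 in HR (SE 0.25, adjusted p = 0.244 in limma) and by 0.00 in LR from day 3 to day 7. Over all pathway lists, 31 of 71 measured genes were tested, and 12 of the 31 were kept through fewer than the 4 groups, so the counts above describe the genes that were tested and not the pathway as a whole. LYN, FCGR2B, CXCR4 and CD40 are also made by cells other than B cells. Which cells made BLNK and CD81 in these pools was not tested.

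Markers of other cell types moved with some of these results. Epithelial markers gave 14.55 to 14.62 in LR3, 14.62 to 14.74 in HR3, 14.28 to 14.50 in LR7 and 14.52 to 14.83 in HR7. The LR7 pools were thus the lowest, without overlap. In each group 5 of 6 lay above the array median in all pools. Of the 3 tested, CDH1 fell by 0.41 in HR and 0.42 in LR (adjusted p = 0.0310 and 0.0289 in limma). KRT18 and KRT19 did not pass for the day. The sum of neutrophil markers was higher at day 7, where the 3 tested rose in HR and in LR and MPO was not tested. The sum of squamous and basal epithelial markers was higher at day 7 too. It was 7.65 to 8.68 in LR3, 7.90 to 8.59 in HR3, 8.92 to 9.30 in LR7 and 11.36 to 12.03 in HR7. Of that list KRT5 rose by 4.34 in HR and 2.64 in LR (adjusted p = 0.000351 and 0.00551 in limma) and KRT15 by 3.59 in HR (adjusted p = 1.85e-05). KRT15 was also higher in HR7 than in LR7, by 3.08 (adjusted p = 0.00127). Of 6 T cell markers tested, 2 fell in HR and 3 in LR. Of 9 stromal markers tested, 3 fell in HR and 2 in LR, and none of either list rose. Among all tested probe sets 20.8% fell in HR and 22% in LR. The part of these cell types in the day differences of the antibody genes was not tested. Macrophage markers gave 10.61 to 11.08 in LR3, 10.85 to 11.46 in HR3, 11.10 to 11.27 in LR7 and 10.95 to 12.08 in HR7. Red blood cell markers gave 7.92 to 8.33 over the 12 pools and did not set pool 3 of LR3 (8.12) apart. That pool had the highest sum of T cell markers, 10.87, and among the day 3 pools the highest sum of neutrophil markers, 9.89, and of squamous and basal epithelial markers, 8.68. Stromal markers ran from 11.91 to 13.94 and gave 13.38 there. The part of other cells in the high IGHM and JCHAIN of that pool was not tested.

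**Figure D5:**
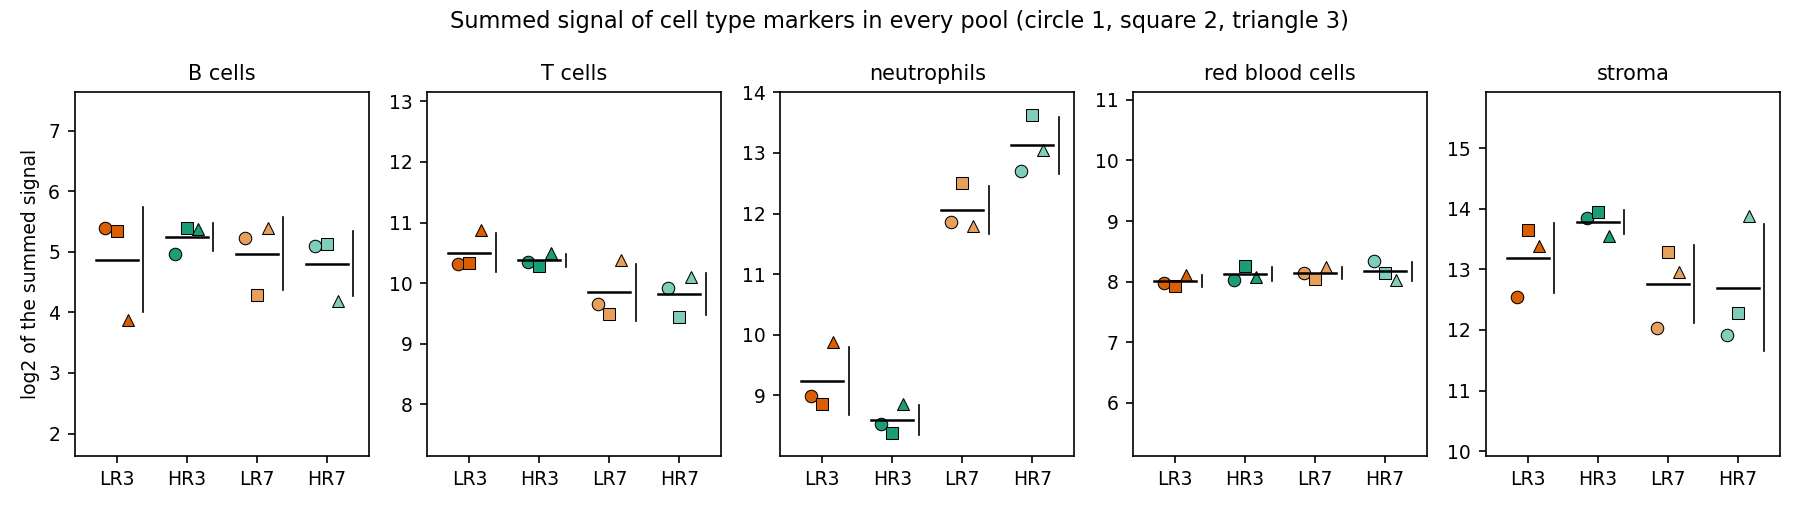
Log2 of the summed signal of cell type markers in each of the 12 pools (circles, squares and triangles for pools 1, 2 and 3), with the mean as a horizontal and the SD over 3 pools as a vertical line, on axes that each span the same number of log2 units. B cell markers were lowest in pool 3 of LR3 (3.88), where T cell markers were highest (10.87), and neutrophil markers were higher in all day 7 pools than in all day 3 pools.

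Pools also differed in a labelling control. The 5′ minus 3′ signal of the spiked dap control was -2.83 to -2.42 in LR3 and -1.76 to -1.28 in LR7, without overlap, while HR3 (-2.64 to -1.37) and HR7 (-2.36 to -1.54) overlapped. The spiked thr control was likewise -3.42 to -3.13 in LR3 and -2.51 to -2.02 in LR7, and its days overlapped in HR. In LR these controls went with the day without overlap, so their parts cannot be told apart there. With the dap control as a covariate none of the 3 LR calls remained. The differences were then -1.50 for IGHM, 0.66 for MZB1 and 0.60 for BLNK, with adjusted p = 0.202, 0.164 and 0.164 in limma. In HR both calls were still made, at 0.72 for MZB1 and 0.77 for BLNK (adjusted p = 0.0149 and 0.00736). Over all 7336 probe sets the calls went from 3280 to 430 in LR with this covariate, and from 3045 to 3034 in HR.

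As for the genes whose pools deviated most like those of the members, IGHM was nearest to IER5L (r = 0.96) and KRT5 (0.93), JCHAIN to DTNB (0.96) and C23H6orf226 (0.95), BLNK to SEPTIN4 (0.93) and GNMT (0.88), and PIGR to EEF2K and NANS (0.98 each). For IGHM these were 0.92 and 0.84 without pool 3 of LR3. They are descriptions over 12 pools, with the deviation of each value from its group mean, and carry no test.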

How the data were processed

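Total RNA was extracted from the biopsies with TRI Reagent, treated with DNase and pooled, and the 12 pools were labelled with biotin and hybridized, 1 array each. The authors scanned in GCOS 1.1.1 with global scaling and made PLIER signals in Expression Console. The deposited values are on the log2 scale (0 to 14.07) and were used unchanged. Precision is limited by having 3 arrays a group. After removal of 112 control probe sets, 24016 remained. The authors' present calls were not used here. In their place, a probe set was tested when its SD over the 12 arrays was at least 0.2 and every pool of 1 or more groups exceeded its array median, which left 7336.

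Group means were compared in limma 3.58.1 (R 4.3.3, lmFit and eBayes) with all 12 arrays, two-sided, and adjusted by Benjamini-Hochberg within each comparison. The study used a mixed model, so an ordinary linear model was among the alternatives. Correlations used 100000 permutations of all 12 pools, regardless of group, in numpy 2.4.6 with ranks from scipy 1.17.1. For a list gene with several probe sets, the one brightest on average was taken. Of 183 list genes, 123 matched by symbol, 1 by gene ID through RefSeq and 59 had no match. All 7 genes were named whatever their values, and from each list up to 6 genes per comparison that passed. The genes and lists were chosen with earlier results of these data known. Scripts were tested on simulated data.

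Pools carry the numbers 1 to 3 in every group. Deviations of pools with the same number correlated by 0.20, 0.21 and 0.46 between LR3 and LR7 and by 0.14, 0.15 and 0.44 between LR7 and HR7, but not in the other pairs of groups (LR3 with HR3 -0.08, -0.03 and -0.47). The number was therefore added as a block in an alternative, where it rests on the data and not on the records. Other alternatives were the limits on low and even signals, quantile normalization, median centring, array weights, an intensity trend, fits of the compared groups alone, the dap control as a covariate and leaving out each pool.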

Additional observations from a re-analysis of the deposited data

How the results depend on the processing

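For the 5 tested genes, the numbers that passed were 0, 0, 2, 3 and 0 for HR3 against LR3, HR7 against LR7, HR7 against HR3, LR7 against LR3 and the interaction. With the replicate block they were the same, and adding only the compared groups to the block changed none of the 4 comparisons of groups. Leaving out 1 pool gave 0, 0, 2, 1 to 2 and 0. For LR7 against LR3, 1 gene passed (BLNK) without the limit on low signals, without any limit and with only the compared groups. With the dap covariate 0 of the 5 passed, beside 430 of all 7336 probe sets. For HR7 against HR3, 1 passed (BLNK) under the stricter limit, which dropped MZB1 from testing. An ordinary model at an unadjusted p gave 1 (IGHM) for HR3 against LR3. The call of IGHM in LR was also lost without the limit on the SD, under quantile normalization and in the ordinary model (adjusted p = 0.0687, 0.0512 and 0.101). Each gene has 1 probe set, so averaging probe sets changed nothing.

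Signs turned for differences that had not passed. With array weights BLNK became 0.0022 and PIGR 0.11 for HR3 against LR3, and BLNK -0.10 for the interaction. With the dap covariate PIGR became 0.12 for HR3 against LR3 and -0.060 for the interaction. Without LR3 replicate 3 and LR7 replicate 2 together, an alternative chosen after seeing the data, as was the block with only the compared groups, PIGR became 0.16 for HR3 against LR3, -0.043 for HR7 against LR7, 0.15 for LR7 against LR3 and -0.20 for the interaction, JCHAIN 0.10 and BLNK 0.03 for HR7 against LR7, and MZB1 -0.068 for the interaction. Leaving out 1 pool gave PIGR -0.17 to 0.16 at day 3, -0.043 to 0.28 at day 7, -0.18 to 0.017 over days in HR, -0.35 to -0.027 over days in LR and -0.023 to 0.30 for the interaction. It gave JCHAIN -0.69 to 0.10 at day 7, -0.27 to 0.01 over days in HR and -0.027 to 1.25 for the interaction. It gave BLNK -0.18 to 0.077 at day 7 and -0.037 to 0.22 for the interaction, and MZB1 0.027 to 0.37 for the interaction. The cause of these shifts was not tested. With 3 pools per group, the 95% intervals for IGHM and JCHAIN spanned more than 2 log2 units.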
